A study of Rattus norvegicus with 6 samples.

Results

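The genes described here are 9 transcripts of the B lymphocyte: Cd79a and Cd79b, the signalling chains of the B cell receptor; Cr2, Cd22, Fcer2 and Ms4a1, surface proteins that raise or lower its signal or mark the cell; Blk, a kinase beneath it; Pax5, the transcription factor of B cell identity; and Fcrla, an intracellular Fc receptor-like protein. They were taken by gene symbol, and each matched 1 row of the 40995 genes in the deposited count table. All 9 passed the filter on low counts. The libraries were made from lung of 3 wild-type (WT) rats and 3 rats of the crTMPRSS2 knockout (KO) line, in which CRISPR/Cas9 was aimed at Tmprss2, a gene for a cell-surface serine protease. Both genotypes are on a Sprague-Dawley background and neither was treated, so the comparison is of baseline lung. The sources used here do not give age, sex, litter or the number of founders of the KO line. The labels call the 3 rats of each genotype biological replicates.

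The B cell receptor is a membrane immunoglobulin held by a CD79A and CD79B dimer. When antigen is bound, tyrosines in the CD79 tails are phosphorylated by SRC-family kinases such as LYN and BLK, and SYK, BTK and PLCG2 carry the signal on. Complement receptor 2 lowers the threshold for this signal, and CD22 recruits phosphatases that damp it. In the lung, B cells sit in the vascular bed, in scattered interstitial positions and, where present, in bronchus-associated lymphoid follicles, whose follicular dendritic cells can also carry CR2 and the low-affinity IgE receptor FCER2.

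Total counts ran from 29933359 to 36895162 per library, and the labelled tissue carried its defining transcripts: all 12 lung markers listed (such as Sftpc, the surfactant protein C of alveolar type 2 cells, and Ager of type 1 cells) were measured and tested. Tmprss2 itself was still transcribed in the KO line: WT counts scaled to 50.5, 62.0 and 65.7 CPM against KO values of 46.1, 56.4 and 47.0 CPM, with a log2 fold change of -0.25 (edgeR adjusted p = 0.508). The overlap came from WT replicate 1: both other WT libraries lay above every KO library, and without it the log2 fold change was -0.36 (SE 0.090, adjusted p = 0.0589). Counts per gene do not show the edit, so the genotypes are taken from the labels and were not checked by these data. A single WT library, replicate 1, was unlike the rest. The 10 striated muscle markers summed to 9449 CPM (counts per 1e6 counts, on library sizes scaled by the trimmed mean of M-values) in that library and to 23.5 to 51.3 CPM in the others, and the 10 squamous epithelium markers to 3454 CPM against 3.79 to 9.22 CPM. The comparisons of the 9 genes are therefore given with all 6 libraries and again without WT replicate 1, where only 2 WT rats remain. In whole lung, a difference in the number of B cells and a difference in mRNA per B cell cannot be told apart.

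Transcripts of 7 of the 9 genes stood higher in every KO library than in every WT library. The exceptions were Blk, which did not differ in a visible direction, and Cr2, whose groups overlapped. With all 6 libraries 0 of the 9 passed edgeR's quasi-likelihood test at an adjusted p under 0.05 over 18464 genes, against 0.0162% of all tested genes called higher and 0.0379% called lower; 7 of the 9 had an unadjusted p under 0.05, all higher, where 5.04% of all genes did. DESeq2 called 3 of the 9 higher (Fcer2, Pax5 and Cd79a), where it called 145 of 19077 genes higher. For limma on log2(FPKM + 1) the numbers were 0 of the 9 and 4 of 18464 genes. Without WT replicate 1 edgeR called 5 of the 9 higher (Cd79a, Cd79b, Ms4a1, Cd22 and Fcer2) and 0 lower, against 1.65% of 18994 genes called higher and 2.34% called lower. The same 7 genes, Cr2 among them and Fcrla not, had an unadjusted p under 0.05, against 8.52% of genes that were higher at that level.

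The number of calls without WT replicate 1 moved with the libraries and the tool. Leaving out WT replicate 3 as well, or KO replicate 2, left 0 of the 9 called by edgeR, and leaving out WT replicate 2, KO replicate 1 or KO replicate 3 as well left 3, 2 and 1. In the same 5 libraries limma on log2(FPKM + 1) called 0 of the 9, DESeq2 called 6 (the 5 and Pax5, adjusted p = 0.00658), and edgeR with no filter on low counts called 7. The calls over all genes moved too. Limma called 67 of 18994 genes higher, DESeq2 495 of 17457 and edgeR with no filter 754 of 27214, against 314 of 18994 in the main edgeR fit. The median log2 fold change of the 9 was 0.85 with all 6 libraries and 0.57 without WT replicate 1, beside medians of -0.0029 and 0.0036 over all genes tested. All KO libraries lay above all WT libraries for 11.4% of all tested genes with 6 libraries and for 17.1% without WT replicate 1.

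**Figure D1:**
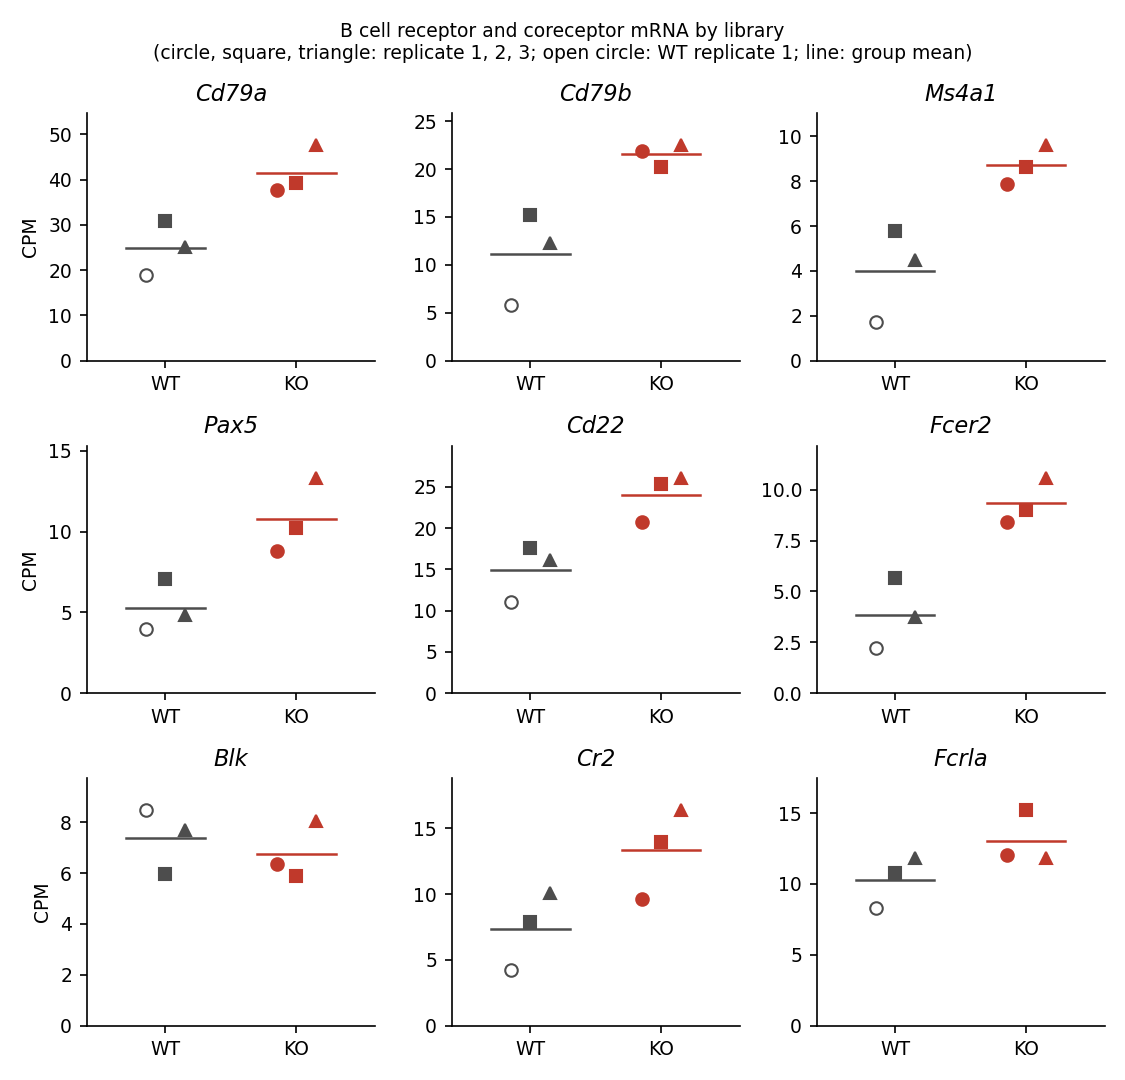
CPM of the 9 genes (vertical axes, each from 0) in the 3 WT and 3 KO libraries; each symbol is 1 library, the open circle is WT replicate 1 and the line is the mean of the group. WT replicate 1 is the lowest library in 8 panels and the highest in the Blk panel.

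Both signalling chains of the receptor were higher in KO lung. Cd79a (gene 100913063; chromosome 1, 80493520 to 80497936 of mRatBN7.2, plus strand) had 18.8, 30.9 and 25.0 CPM in the WT rats, in the order of their numbers, against 37.7, 39.2 and 47.6 CPM in the KO rats. The highest WT library lay below the lowest KO library. On the log2 scale KO exceeded WT by 0.73 (SE 0.19, edgeR adjusted p = 0.267, 95% confidence interval 0.28 to 1.19) with 6 libraries, and 0.57 (SE 0.12, interval 0.30 to 0.84, adjusted p = 0.0307) without WT replicate 1. Cd79b (gene 171055; chromosome 10, 91239354 to 91242500, minus strand) had WT values of 5.82, 15.2 and 12.3 CPM against KO values of 21.9, 20.2 and 22.5 CPM. The KO rats were close to one another (SD 1.16 CPM, n = 3), and the WT rats were spread more widely (SD 4.81 CPM, n = 3), with replicate 1 lowest. By edgeR the log2 difference was 0.95 (SE 0.32, adjusted p = 0.362) with 6 libraries and 0.65 (SE 0.12, adjusted p = 0.0181) without that library, the smallest adjusted p of the 9.

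The 2 chains form a dimer, and their mRNA ratio was close in 5 libraries. On the FPKM scale, which divides by gene length, Cd79a was 2.07 and 2.08 times Cd79b in WT replicates 2 and 3 and 1.75, 1.97 and 2.16 times in KO replicates 1 to 3. In WT replicate 1 it was 3.29 times. The KO values lay on both sides of those of WT replicates 2 and 3, and the ratio of WT replicate 1 was outside the range of the other 5.

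RefSeq promoter sequences (build GRCr8, a later build than that of the counts) were held for 4 of the 9 genes: Cd79a, Cd22, Cr2 and Fcrla. All 4 are shown, since Cd79a and Cd22 were called without WT replicate 1 and Cr2 and Fcrla were not; the genes with the largest differences are not among them. Each run is the 250 bases before the annotated start, read 5′ to 3′ on the gene's strand, with matches to the motifs named in the next paragraph in capitals. Cd79a lies at chr1:89621210-89621459 (plus strand), Cd22 at chr1:95259731-95259980 (minus), Cr2 at chr13:109244507-109244756 (minus) and Fcrla at chr13:85702827-85703076 (minus).
Cd79a: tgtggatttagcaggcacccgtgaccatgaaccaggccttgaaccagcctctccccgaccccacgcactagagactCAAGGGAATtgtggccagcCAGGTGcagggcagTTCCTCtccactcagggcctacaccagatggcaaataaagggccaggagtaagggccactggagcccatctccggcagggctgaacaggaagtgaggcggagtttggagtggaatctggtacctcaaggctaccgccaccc
Cd22: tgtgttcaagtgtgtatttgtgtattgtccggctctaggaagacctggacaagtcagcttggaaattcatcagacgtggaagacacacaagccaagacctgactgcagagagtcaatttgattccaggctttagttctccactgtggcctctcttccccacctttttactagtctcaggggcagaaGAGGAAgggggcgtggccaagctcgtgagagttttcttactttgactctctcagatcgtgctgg
Cr2: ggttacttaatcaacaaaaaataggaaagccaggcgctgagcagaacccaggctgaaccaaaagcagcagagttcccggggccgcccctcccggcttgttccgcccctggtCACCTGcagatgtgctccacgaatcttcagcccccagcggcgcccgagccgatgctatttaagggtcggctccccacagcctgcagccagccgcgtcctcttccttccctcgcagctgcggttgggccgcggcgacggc
Fcrla: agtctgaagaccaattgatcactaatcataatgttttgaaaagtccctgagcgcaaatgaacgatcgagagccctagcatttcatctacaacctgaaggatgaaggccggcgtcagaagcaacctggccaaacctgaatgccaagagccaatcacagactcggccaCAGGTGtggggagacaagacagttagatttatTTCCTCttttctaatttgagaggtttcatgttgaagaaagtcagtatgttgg

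Motifs of B lineage factors were searched as letters on both strands, in the 250 bases before and 50 bases after the start. CAAGGGAAT, known as the binding site of early B cell factor in the mouse Cd79a promoter and added to the search after the rat sequence had been read, occurred in the Cd79a window, 174 to 166 bases before the start, and in 0.185% of 33469 rat promoters. The E-box CAGGTG followed it at 155 to 150 bases before the start and the PU.1-type core GAGGAA, read on the other strand, at 141 to 136. CAGGTG was also in the Cr2 window (on the other strand) and the Fcrla window, and in 18.8% of all promoters. GAGGAA was in the Cd22 and Fcrla windows and in 27.6% of all promoters. The core CCCNNGGG, the octamer ATGCAAAT and a TATA box (TATAAA) were in 0, 0 and 1 of the 4 windows (the TATA box in Fcrla, after the start) and in 12.4%, 1.78% and 14.2% of all promoters. No 2 matches overlapped. A match describes the letters and is not a measured site; the Cd79a and Fcrla windows both held CAGGTG and GAGGAA.

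Among the surface proteins, the IgE receptor had the largest difference. Fcer2 (CD23; gene 171075; chromosome 12, 1742809 to 1754476, minus strand), a lectin-type receptor of mature B cells, had WT values of 2.201, 5.64 and 3.73 CPM against KO values of 8.42, 8.98 and 10.6 CPM. The mean of KO was 2.42 times that of WT, and 1.99 times that of WT replicates 2 and 3. Its log2 fold change was 1.27 (SE 0.33, interval 0.49 to 2.06, adjusted p = 0.267) with 6 libraries and 1.00 (SE 0.21, interval 0.53 to 1.46, adjusted p = 0.028) without WT replicate 1. The authors' deposited table of 192 changed genes holds Fcer2 and 1 other of the 9, Pax5. It gives Fcer2 a log2 fold change of 1.27 and an adjusted p of 0.0121. The smallest absolute log2 fold change in the authors' deposited table is 1.00, a size that Fcer2, Pax5 and Ms4a1 reached among the 9 in the edgeR fit of 6 libraries.

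Ms4a1 (CD20; gene 309217; chromosome 1, 207906370 to 207927028, minus strand), a tetraspan protein of the B cell membrane, had among the fewest counts of the 9, at 51 to 301 per library. It had WT values of 1.73, 5.79 and 4.504 CPM against KO values of 7.87, 8.64 and 9.60 CPM, with no overlap. The log2 fold change was 1.11 (SE 0.40, adjusted p = 0.385) with 6 libraries and 0.76 (SE 0.18, adjusted p = 0.0468) without WT replicate 1. A noncoding gene, LOC120093141, overlaps it on the opposite strand and had 0, 7 and 9 counts in WT and 13, 15 and 15 in KO. The sources used here do not say whether the counting used strand, so reads of the pair could not be told apart if it did not.

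Cd22 (gene 308501; chromosome 1, 86116376 to 86132782, minus strand), the sialic acid-binding inhibitory coreceptor, had WT values of 11.04, 17.6 and 16.2 CPM against KO values of 20.8, 25.3 and 26.1 CPM. The groups did not overlap, and it had the smallest called difference. Its log2 difference was 0.69 (SE 0.20, adjusted p = 0.30) with 6 libraries and 0.51 (SE 0.12, interval 0.24 to 0.78, adjusted p = 0.0442) without WT replicate 1.

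Cr2 (CD21; gene 289395; chromosome 13, 106678579 to 106716595, minus strand), the receptor for C3d-coated antigen, overlapped between genotypes. It had WT values of 4.23, 7.84 and 10.1 CPM against KO values of 9.65, 13.96 and 16.4 CPM, so KO replicate 1 lay below WT replicate 3. The means were 7.38 ± 2.94 CPM and 13.3 ± 3.40 CPM (SD, n = 3 each). A log2 difference of 0.85 (SE 0.34, adjusted p = 0.42) was fitted with 6 libraries and 0.57 (SE 0.21, interval 0.10 to 1.05, adjusted p = 0.187) without WT replicate 1, so it did not pass after adjustment over all genes, although its unadjusted p was 0.0222.

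Pax5 (gene 500453; chromosome 5, 58763334 to 58945719, minus strand), which switches on Cd79a and other B cell genes and holds the lineage, had WT values of 3.96, 7.09 and 4.83 CPM against KO values of 8.77, 10.2 and 13.3 CPM. Every KO library lay above every WT library. The log2 fold change was 1.02 (SE 0.27, adjusted p = 0.27) with 6 libraries and 0.86 (SE 0.22, interval 0.36 to 1.35, adjusted p = 0.0644) without WT replicate 1, just short of the threshold. The authors' deposited table gives it a log2 fold change of 1.02 and an adjusted p of 0.0233. In the edgeR fit with the replicate number as a block and without WT replicate 1 the adjusted p was 0.0482. An opposite-strand noncoding gene within its span, LOC120102862, had at most 4 counts in any library.

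Blk (gene 364403; chromosome 15, 37626746 to 37665053, minus strand), a SRC-family kinase first known from B cells, had WT values of 8.46, 5.94 and 7.69 CPM against KO values of 6.35, 5.86 and 8.04 CPM. The groups overlapped fully, and the log2 fold change was -0.13 (SE 0.21, interval -0.63 to 0.38, adjusted p = 0.799) with 6 libraries and -0.015 (SE 0.20, interval -0.45 to 0.42, adjusted p = 0.981) without WT replicate 1. The sign without WT replicate 1 turned in 5 of 14 alternatives, so no direction is given. It was the single gene of the 9 with WT replicate 1 as its highest library.

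Fcrla (gene 304965; chromosome 13, 83160453 to 83170170, minus strand), which stays inside the cell and binds immunoglobulin there, had WT values of 8.29, 10.7 and 11.8 CPM against KO values of 12.04, 15.2 and 11.9 CPM. The lowest KO value exceeded the highest WT value by less than the spread within either group. The log2 fold change was 0.34 (SE 0.19, interval -0.10 to 0.79, adjusted p = 0.519) with 6 libraries and 0.21 (SE 0.15, interval -0.11 to 0.54, adjusted p = 0.518) without WT replicate 1.

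**Figure D2:**
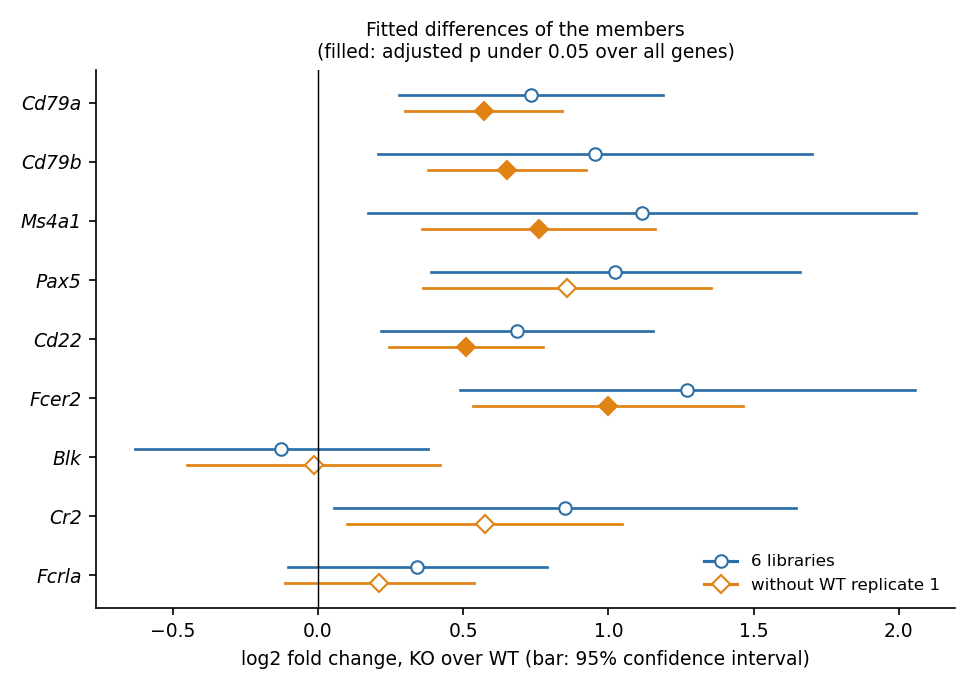
Log2 fold change of KO over WT (horizontal axis) for the 9 genes, with 95% confidence intervals, from edgeR with all 6 libraries (circles) and without WT replicate 1 (diamonds); filled symbols have an adjusted p under 0.05. The 5 filled diamonds lie between 0.51 and 1.00, and both Blk estimates lie near 0.

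Per unit of gene length, the order of the 9 genes was led by the receptor chains in both genotypes. Mean FPKM in WT was 20.9 ± 4.95 for Cd79a, 9.12 ± 3.91 for Cd79b and 7.09 ± 1.197 for Fcrla, and in KO 34.6 ± 4.46, 17.6 ± 0.983 and 8.95 ± 1.27 (SD, n = 3 each). Cd79a ranked first in all 6 libraries, and Cd79b ranked second in 5 and came behind Fcrla in WT replicate 1; in WT the means of these 2 differed by less than the spread. Cd22, Blk, Ms4a1 and Fcer2 followed with WT means of 2.59, 2.32, 1.93 and 1.92 FPKM, which did not differ beyond their spread (SD 0.421 to 0.995). In KO, Fcer2, Ms4a1 and Cd22 had means of 4.62, 4.19 and 4.14 FPKM, again within their spread between libraries (SD 0.417 to 0.559). Compared library by library, Fcer2 stood above both Ms4a1 and Cd22 in every KO library. Blk stood below these genes at 2.12 ± 0.36 FPKM. Cr2 and Pax5 had the lowest means, 0.983 and 0.768 FPKM in WT and 1.77 and 1.56 FPKM in KO. Cr2 and Pax5 did not differ from each other beyond their spread between libraries, nor Cr2 from Blk in KO. Compared library by library, Cr2 stood above Pax5 in every library but WT replicate 1.

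Set against Cd79a in the same library, 4 of the other 8 genes overlapped between genotypes in FPKM, 3 stood higher in every KO library and 1, Blk, stood lower. Fcer2 stood at 6.95%, 10.8% and 8.85% of Cd79a in WT replicates 1 to 3 and at 13.3%, 13.6% and 13.2% in KO replicates 1 to 3. Blk stood at 16.9%, 7.22% and 11.6% in WT and at 6.33%, 5.63% and 6.35% in KO. The genotypes did not overlap for either gene, with or without WT replicate 1. Of all tested genes, 0.785% stood higher and 65% lower against Cd79a in every KO library with 6 libraries, and 1.55% and 69.4% without WT replicate 1, so the position of Blk is that of most genes. Every KO library was also above every WT library for Ms4a1 (5.29%, 10.8% and 10.4% in WT, 12.05%, 12.7% and 11.6% in KO) and Pax5 (3.65%, 3.97% and 3.34%, then 4.03%, 4.52% and 4.85%), by smaller margins. Cd22, at 11.8% to 13.4% in WT and 11.3% to 13.3% in KO, overlapped, as did Cd79b, Cr2 and Fcrla. These proportions are a description: an exact permutation test of 3 against 3 rats cannot give a two-sided p below 0.1.

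**Figure D3:**
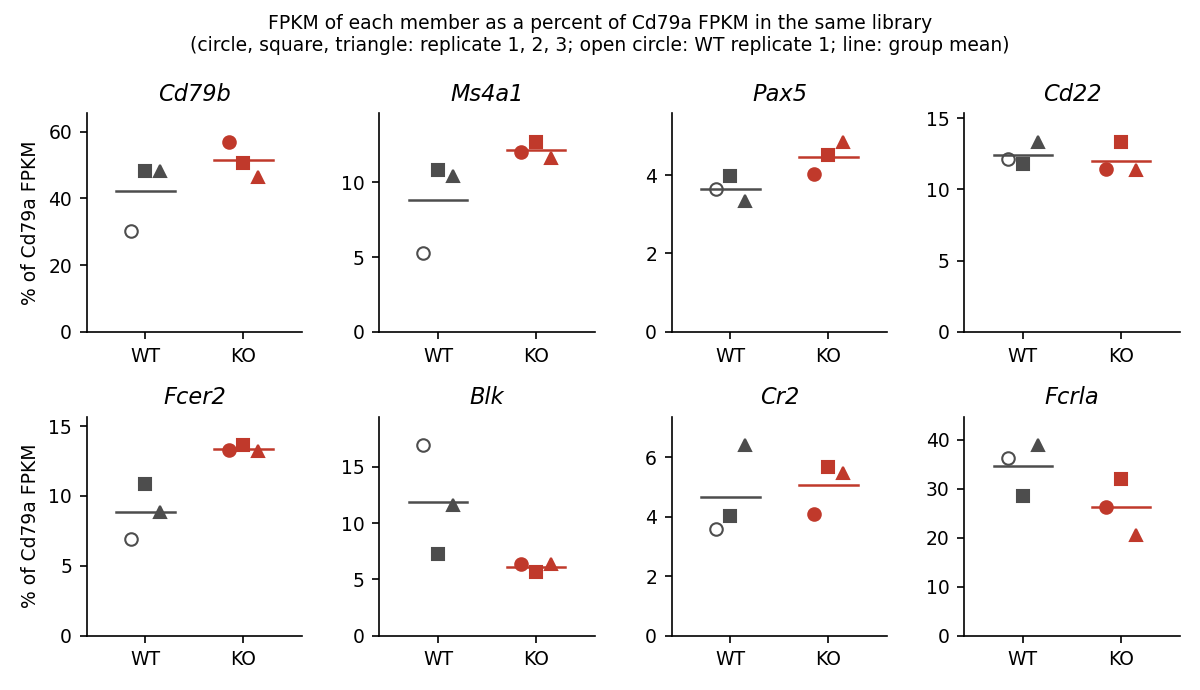
FPKM of 8 genes as a percent of Cd79a FPKM in the same library (vertical axes, each from 0); each symbol is 1 library, the open circle is WT replicate 1 and the line is the mean of the group. The 3 KO libraries lie between 13.2% and 13.6% for Fcer2 and between 5.63% and 6.35% for Blk, outside the WT range in both panels.

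Across the 6 libraries, 8 of the 9 genes varied together, and Fcrla did so less closely without WT replicate 1. The Pearson correlation of each gene's log2 CPM with the mean standardised level of the other 8 was 0.776 (Fcrla) to 0.991 (Cd22) over 6 libraries and 0.418 (Fcrla) to 0.983 (Cd22) over the 5 without WT replicate 1; for Blk it was -0.50 and -0.022. These are descriptions over 6 and 5 libraries that share a genotype difference and, for the 6, 1 library that stands apart. Of 13768 other genes with at least 1 CPM, those most like the mean of the 9 over 6 libraries were Zfp141, Ptprcap, Ccdc77, Ppm1e, Stk10, Rabl2, Hsh2d, Pik3cd, Mtrf1 and Trmt6 (r from 0.997 down to 0.989). Over 5 libraries they were Sbk1, Mmp24os, Tnfaip2, Ccdc77, Ptp4a3, Mzb1, Eno3, Tbc1d10c, Parp2 and Dgkz (r from 0.998 down to 0.992). Only Ccdc77 was in both sets of 10.

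The summed CPM of the 9 genes was 64.6, 106.9 and 96.0 in WT and 133.4, 147.6 and 165.9 in KO. Cd79a made up 26.0% to 29.2% of the sum in each library. Other lymphocyte markers moved with it: 15 T cell markers summed to 178.5, 227.1 and 219.4 CPM in WT and 280.9, 269.6 and 318.2 CPM in KO, and 12 NK cell markers to 39.8, 162.4 and 158.6 CPM and then 291.9, 298.6 and 284.4 CPM. As a share of the T cell sum the 9 genes stood at 36.2%, 47.1% and 43.8% in WT and at 47.5%, 54.7% and 52.1% in KO. That order rests on Cd4, which macrophages can also express and which made up 31.5% to 66.6% of the sum. Without Cd4, an alternative chosen after seeing the data, the shares overlapped, at 108.2%, 80.3% and 70.8% in WT and 73.8%, 85.2% and 76.1% in KO. As a share of the NK cell sum they stood at 162.0%, 65.8% and 60.6% in WT and at 45.7%, 49.4% and 58.3% in KO, lower in every KO library. Against 7 genes shared by leukocytes, the share was 8.26%, 11.4% and 11.2% in WT and 13.3%, 13.98% and 15.8% in KO. The most abundant gene of that list, Laptm5, was not higher in KO, at 283.2, 252.0 and 240.7 CPM against 230.8, 238.9 and 217.2 CPM in KO. The part of a general lymphocyte difference in the B cell values was not tested.

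**Figure D4:**
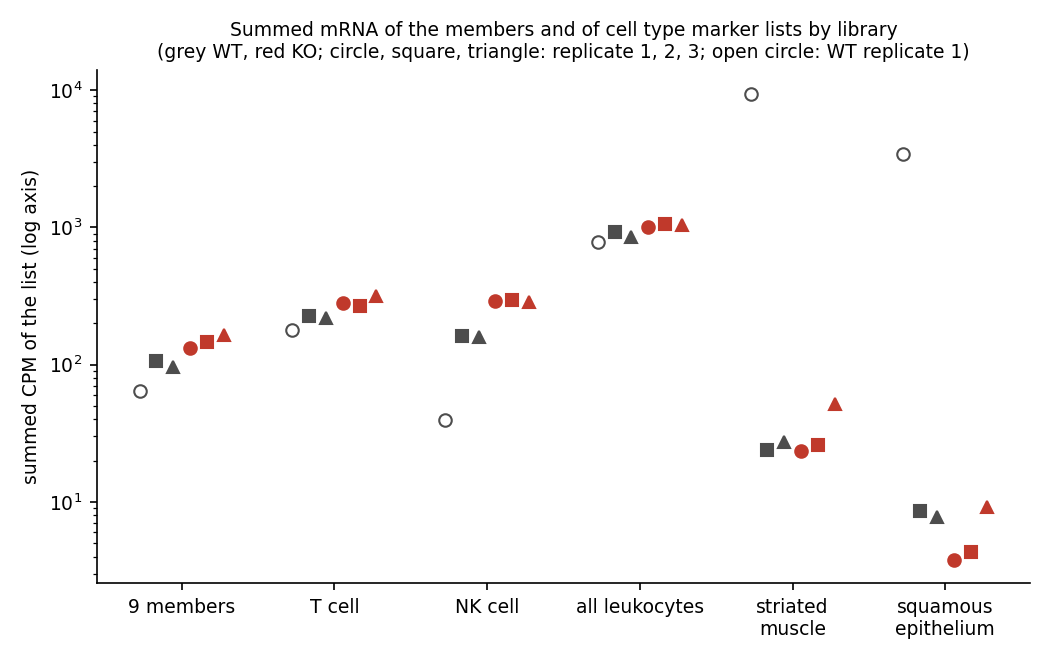
Summed CPM (log axis) of the 9 genes and of 5 marker lists in each library; grey symbols are WT, red symbols KO, and the open circle is WT replicate 1. The 3 KO libraries lie above the 3 WT libraries for the 9 genes, the T cell, the NK cell and the leukocyte list, and WT replicate 1 lies far above the rest for striated muscle and squamous epithelium.

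The genes that work beside the receptor changed in part. Of 22 genes of receptor signalling, edgeR called 4 higher and 1 lower without WT replicate 1, with a median log2 fold change of 0.11, and 0 with all 6 libraries (median 0.16; 7 with an unadjusted p under 0.05; 2 called higher by DESeq2 and 0 by limma). Prkcb, the protein kinase C that links the receptor to NF-kappa B, and Pik3cd, the leukocyte PI3 kinase subunit, rose by 0.72 and 0.47 without WT replicate 1. Plcg2, the phospholipase of the pathway, rose by 0.41 in the same fit and was named after its values were seen. Cd81, a tetraspanin of the CR2 complex that many lung cells express, fell by 0.28 (SE 0.057, adjusted p = 0.0233). Its 3 WT libraries, at 643.3, 533.8 and 486.8 CPM, all lay above its KO libraries, at 413.9 to 424.5 CPM. Of the 7 genes with an unadjusted p under 0.05 with 6 libraries, Cd81 alone was lower in KO. Lyn, Syk and Btk, named after their values were seen, were not called, at log2 fold changes of 0.10, 0.25 and 0.12 without WT replicate 1. For Syk every KO library lay above every WT library (edgeR adjusted p = 0.0703 without WT replicate 1). Lyn, like Cd81, stood at far more counts than the 9 genes, 189.1 to 247.3 CPM.

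Of 21 further genes of B cell surface and homing, 4 were called higher without WT replicate 1 and 0 lower (median 0.29), and 0 with all 6 libraries (median 0.34; 5 with an unadjusted p under 0.05; 2 by DESeq2 and 0 by limma). Among these were Cd180, a toll-like receptor relative of B cells, which had WT values of 9.82, 8.38 and 8.55 CPM against KO values of 14.5, 15.6 and 14.2 CPM and rose by 0.80 (SE 0.13, adjusted p = 0.00817), and the tetraspanin Cd37, which rose by 0.43. For Cd180, as for Blk, WT replicate 1 was the highest WT library.

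Of 15 transcription factors of the B lineage, 5 were called higher and 0 lower without WT replicate 1 (median 0.33), and 0 with all 6 libraries (median 0.47; 6 with an unadjusted p under 0.05; 1 by DESeq2 and 0 by limma). Ikzf3 (Aiolos), Pou2af1 (the coactivator OBF-1), Ikzf1 (Ikaros) and Pou2f2 (OCT-2) rose by 0.71, 0.66, 0.44 and 0.58, and the fifth, Bcl6, named after its values were seen, rose by 0.50. Ikzf1 and Ikzf3 are expressed by other lymphocytes too. Ebf1, the early B cell factor that acts with Pax5 and is also expressed by stromal cells, had WT values of 18.3, 18.7 and 16.9 CPM against KO values of 16.9, 14.8 and 17.5 CPM and was not called (log2 fold change -0.12, adjusted p = 0.69); it too was named after its values were seen. Over the 3 lists together, 12 of 56 genes were called higher and 1 lower without WT replicate 1, against 1.65% and 2.34% of all genes. With all 6 libraries edgeR called 0, and 17 had an unadjusted p under 0.05, of which Cd81 alone was lower in KO. Among all genes 5.04% were higher at that unadjusted level. DESeq2 called 5 of the 56 higher, and 145 of 19077 genes. Without WT replicate 1 limma called 2 of the 56 higher, and DESeq2 14 higher and 1 lower of 55. Over all genes limma called 67 of 18994 higher, and DESeq2 495 higher and 654 lower of 17457.

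**Figure D5:**
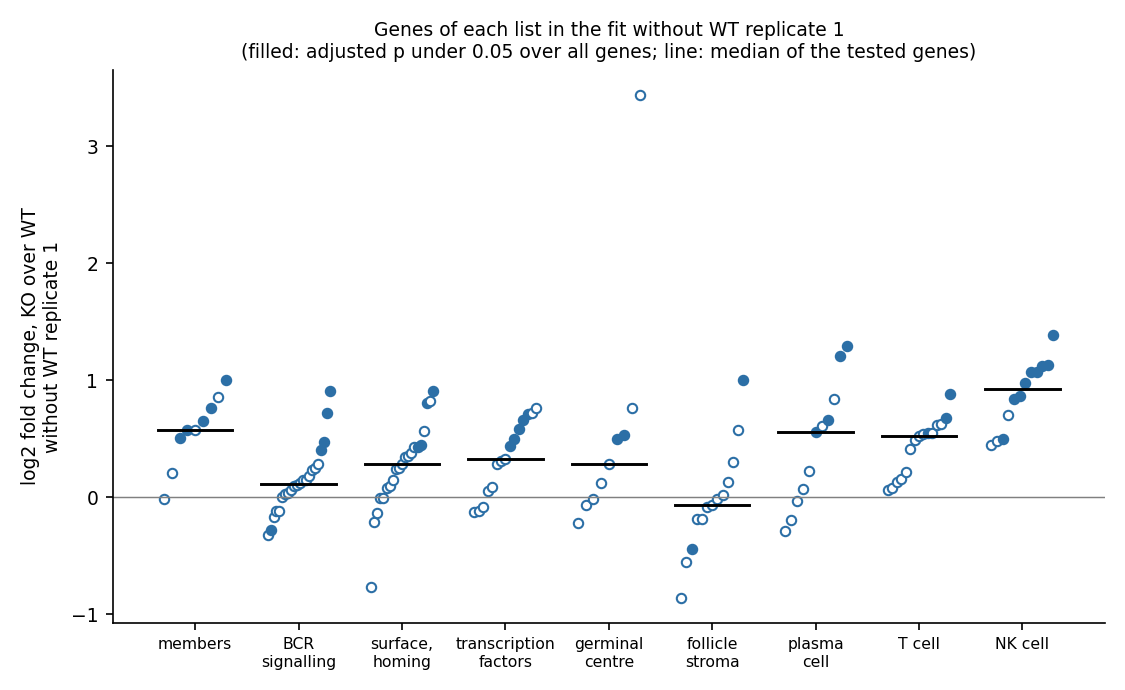
Log2 fold change of KO over WT without WT replicate 1 (vertical axis) for the tested genes of 9 lists; each circle is 1 gene, filled where the adjusted p was under 0.05, and the line is the median. The highest open circle, in the germinal centre list, is Nuggc, which had at most 16 counts in any library.

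Of 9 tested germinal centre genes, 2 were called higher without WT replicate 1, Il21r and Bcl6, which other leukocytes share; Nuggc had WT values of 0.135, 0 and 0.0536 CPM against KO values of 0.356, 0.158 and 0.51 CPM, and Fas was not called. In the fit of 6 libraries 0 of 8 were called (2 with an unadjusted p under 0.05; 0 by DESeq2 and limma). Of 13 tested genes of follicular dendritic cells and B zone stroma, 1 was called higher, Fcer2 itself, and 1 lower, Mfge8, which fell by 0.44; the median was -0.067. Over 6 libraries 0 were called by edgeR, 3 by DESeq2 (1 higher, 2 lower) and 0 by limma. Of the 4 with an unadjusted p under 0.05 in edgeR, Fcer2 and Cr2 were higher in KO and Mfge8 and Ccl19 lower. The follicular dendritic marker Fdcsp had 0 counts in all 6 libraries, where 3 counts would be 0.0804 to 0.102 CPM, and Cxcl13, the chemokine that draws B cells into follicles (named after its values were seen), stood at 1.64 to 3.86 CPM in WT and 2.10 to 3.09 CPM in KO. Ccl19 and Il7, stromal factors of lymphoid tissue, had log2 fold changes of -0.93 and -0.31 with 6 libraries and -0.86 and -0.56 without WT replicate 1. EdgeR called neither in either fit, with adjusted p = 0.0597 for Ccl19 and 0.179 for Il7 without WT replicate 1. For Ccl19 every KO library, at 3.37 to 4.97 CPM, lay below every WT library, at 6.49 to 8.84 CPM.

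Plasma cell genes, the later stage of the lineage, were split. Without WT replicate 1, 4 of 11 were called higher and 0 lower (median 0.55), and with all 6 libraries 0 were called (median 0.29; 6 with an unadjusted p under 0.05; 2 by DESeq2 and 0 by limma). Jchain, which joins polymeric immunoglobulin, had WT values of 36.7, 44.8 and 31.8 CPM against KO values of 92.2, 101.3 and 71.4 CPM. Igha, the IgA heavy chain, had WT values of 111.5, 164.5 and 88.2 CPM against KO values of 287.5, 374.2 and 263.8 CPM. Without WT replicate 1 they rose by 1.21 and 1.29, and Pou2af1 and Prdm1, the plasma cell regulator BLIMP-1, by 0.66 and 0.55. In the same fit limma called 0 of the 11 and DESeq2 4 of 10, all higher. Xbp1 and Fkbp11, named after their values were seen, were among the 6 genes with an unadjusted p under 0.05. They were lower in KO, at log2 fold changes of -0.27 and -0.50 with 6 libraries, and the rest of the 6 were higher. Symbols for the IgM and IgG1 heavy chains did not match a row, so the membrane immunoglobulin of the receptor itself is not analysed here.

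In the T cell list, 3 of 15 genes were called higher without WT replicate 1 (Cd8a, Lat and Zap70; median 0.52), and in the NK cell list 9 of 12 (median 0.92), among them Prf1, Tbx21, Il2rb and Klrd1. With all 6 libraries edgeR called 0 of either list (7 with an unadjusted p under 0.05 in each), DESeq2 called 1 and 3, and limma 0. Of the 7 leukocyte genes 2 were called higher and 0 lower without WT replicate 1, and 5 had a log2 fold change above 0. Ptprc (CD45), carried by all lymphocytes, had WT values of 47.2, 153.3 and 159.9 CPM against KO values of 200.6, 219.6 and 210.9 CPM, and rose by 0.43 (SE 0.061, adjusted p = 0.00495); Coro1a rose by 0.54. Over 6 libraries 0 of the 7 were called by edgeR (2 with an unadjusted p under 0.05), 1 by DESeq2 and 0 by limma. Per Ptprc FPKM, Cd79a stood at 172.4%, 87.2% and 67.6% in WT and at 81.1%, 77.1% and 97.4% in KO, so the genotypes overlapped on that scale, as they did for Cd79b, Pax5, Cd22 and Cr2. Ms4a1 stood higher in every KO library, at 9.13%, 9.42% and 7.02% in WT and 9.78%, 9.81% and 11.3% in KO, and Fcer2 did so only against WT replicates 2 and 3. Blk and Fcrla stood lower in every KO library, with Fcrla at 62.6%, 24.9% and 26.2% in WT and 21.4%, 24.6% and 20.01% in KO. Of all tested genes 0.661% stood higher and 68.4% lower per Ptprc with 6 libraries, and 2.7% and 67.5% without WT replicate 1.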

How the data were processed

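Whole-lung poly-A RNA of 3 WT and 3 KO rats was sequenced as paired 150 base reads, per the labels. The authors deposited raw gene counts, FPKM values and a table of their comparison with a signal per library (counts over a size factor), log2 fold changes and p-values; the build was mRatBN7.2, and featureCounts 2.0.6, DESeq2 1.42.0, HISAT2 2.2.1, CASAVA and StringTie 2.2.3 are named, without roles, per the submitters' processing notes. Strand and multimapping settings: not given in the sources used here. Low counts were mostly even (3171 even from 2 to 10 against 1641 odd from 1 to 9 in WT replicate 1), so both mates of a pair seem to be counted and fragments are fewer than counts. The deposited FPKM values equal counts over gene length and over a DESeq2-type library size.

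Counts were analysed with edgeR 4.0.16 in R 4.3.3 (TMM, filterByExpr with a minimum count of 10 and minimum total of 15, glmQLFit, glmQLFTest, genotype alone, Benjamini-Hochberg over all tested genes, threshold 0.05). Adjusted p-values are from this fit unless DESeq2 1.42.0 or limma 3.58.1 is named. For the lists, counts of genes with an unadjusted p under 0.05 take both directions together unless a direction is given. The shares of all genes at that level, 5.04% with 6 libraries and 8.52% without WT replicate 1, are of genes higher in KO and leave out those lower. The standard error is the log2 fold change over the square root of F, and correlations used log2 CPM with a prior count of 2. P-values measure only the spread between these rats. The script was tested on simulated data. Alternatives were other normalizations, filters and tools, protein-coding genes, a replicate block and leaving out each library.

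The members, and 13 lists whose 178 symbols include the members, were chosen with earlier results of these data known; 175 symbols matched and 3 did not. Named were all 9 members, up to 4 genes per list with the smallest p without WT replicate 1, genes at 0, and the 10 genes most like the members, with at least 1 CPM and a symbol that is no identifier; Tmprss2 was added as the edited gene, and others are said to be named after their values were seen. Results of some listed genes are not reported here.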

Additional observations from a re-analysis of the deposited data

How the results depend on the processing

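With all 6 libraries, 8 of 9 log2 fold changes stayed above 0 and that of Blk below 0 under all 15 alternatives. The number of genes called, 10 in edgeR, was 403 with DESeq2 (3 of the 9 members) and 2 with the replicate block, and 1 to 758 when each library was left out, with 0 to 5 of the members; the 758 and the 5 came without WT replicate 1. Without WT replicate 1, the 758 genes became 1149 with DESeq2 (6 of the members), 1707 with no filter on low counts (7), 180 and 236 with limma on log2(FPKM + 1) and log2(FPKM + 0.1) (0 and 1 of the members), and 233 to 522 when a further library was left out, with 0 to 3 of the members against 5. With 1 WT library, that library is assumed to vary like the KO libraries. Blk turned to 0.0098 with upper quartile scaling, 0.024 with the replicate block, and 0.18, 0.028 and 0.079 without WT replicate 3, KO replicate 1 and KO replicate 2; leaving out each library gave -0.19 to 0.18. The cause of these shifts was not tested. Of 126 member values without WT replicate 1, 87 kept direction and call, 29 lost the call, 5 gained it and 5, all of Blk, changed sign.

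The labels do not say whether the replicate numbers pair the rats. Deviations from the group mean of same-numbered libraries correlated at -0.081, 0.027 and -0.085, and not every library correlated best with its own number. These correlations cannot decide the question, since WT replicate 1 stands apart and sets much of the WT deviations. The replicate block called 0 of the members with 6 libraries and 6 without WT replicate 1, adding Pax5 (0.0482) and Cr2 (0.0287) and losing Ms4a1 (0.0634). Depth limits the genes of low count, such as Ms4a1 at 51 to 301 counts per library.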

Other observations

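Among 13 tested myeloid genes, 2 were called higher without WT replicate 1 and 1 lower by edgeR: the integrins Itgam and Itgax rose by 0.50 and 0.49, and the macrophage mannose receptor Mrc1 fell by 0.46. With all 6 libraries edgeR called 0, DESeq2 1 and limma 0. Of the 5 with an unadjusted p under 0.05 in edgeR, Itgam and Itgax were higher in KO. Mrc1, Cd68 and Cd14, the last named after its values were seen, were lower. Among 12 lung tissue genes, Scgb1a1 of club cells rose by 0.38 without WT replicate 1. Cldn5 of endothelium and Sftpc of alveolar type 2 cells fell by 0.46 and 0.20 in that fit. With all 6 libraries edgeR called 0 of the 12, DESeq2 1 (lower) and limma 0. Of the 5 with an unadjusted p under 0.05 in edgeR, Scgb1a1 was higher in KO. Cldn5, Sftpc, Sftpa1 and Napsa, the last named after its values were seen, were lower.

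Of the striated muscle and squamous epithelium genes, 7 and 5 passed the filter, and edgeR and limma called 0 in both comparisons. All 7 and all 5 were lower in KO with an unadjusted p under 0.05 in edgeR with 6 libraries. Without WT replicate 1, 2 and 1 had an unadjusted p under 0.05. With 6 libraries DESeq2 gave an adjusted p for 0 of the 7 and 1 of the 5, and called 0.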
